A study of Mus musculus with 6 samples.

Results

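Paracrine signalling in the uterus was followed through 10 genes on 6 arrays: the fibroblast growth factor (FGF) ligand genes Fgf1, Fgf2, Fgf7, Fgf9, Fgf10 and Fgf18, the FGF receptor genes Fgfr1, Fgfr2 and Fgfr3, and Hgf, the hepatocyte growth factor gene. They were chosen by name, with every probe set annotated to 1 of these symbols alone, which gave 21 probe sets for 10 of the 18193 genes measured. The study compared uterine horns of C57BL6J mice of 2 genotypes, SF1LsL/+ (control below, 3 arrays) and Pgrcre/+ SF1LsL/+ (SF1 below, 3 arrays). Each array held RNA pooled from 2 uteri, and horns were collected without the cervix 2 weeks after a surgery. The kind of surgery and the age of the mice are not stated in the labels. Both groups carried the SF1 transgene, which is silent until Cre removes a stop cassette. The Cre allele lies in the Pgr locus, so it acts in cells that express Pgr, the progesterone receptor gene, and it is known to disrupt the Pgr allele it sits in. SF1, the nuclear receptor encoded by Nr5a1, is best known from steroid-producing tissues. No array held Pgrcre/+ uteri without the transgene, so Cre, Pgr dose and SF1 cannot be told apart. Nothing says that pools were processed apart, so p-values measure the spread between these pools, which may in part be technical.

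FGFs are secreted proteins that bind receptor tyrosine kinases together with heparan sulfate chains. In the uterus, stromal cells release FGFs and HGF that act on the overlying epithelium, where the FGF receptors and Met, the HGF receptor, pass the signal to the Ras and MAP kinase cascade. Hand2, a transcription factor that progesterone induces in stroma, is known to hold down several stromal FGF genes around implantation. These points are background and not results of these arrays.

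The arrays themselves were alike within groups. Median probe set intensities lay between 149.9 and 162.2 arbitrary units, mean correlations of log2 values within a group between 0.989 and 0.992, and between groups 0.967 and 0.976. The 3' over 5' ratio of beta-actin, which reflects RNA integrity, was 2.51 ± 0.107 for control arrays against 2.19 ± 0.123 for SF1 arrays (SD, n = 3; by an exact two-sided permutation test p = 0.1, the smallest that 3 against 3 allows). Both Nr5a1 probe sets were not called (log2 differences of 0.00 and 0.08), and since it is unknown whether they match transgene RNA, the labels could not be checked with them. Pgr itself averaged 4797 ± 89 units in control arrays and 1893 ± 158 in SF1 arrays (SD, n = 3), a fall of -1.34 ± 0.09 on the log2 scale (SE; adjusted p = 3.23e-05 by limma). Of all probe sets, 14% were called at an adjusted p under 0.05, 5.88% higher and 8.08% lower in SF1. Higher calls made up 42.1% of calls without further scaling, 52.1% with quantile normalization and 56.5% with median centring. The count of called probe sets was 6291, against 4150 when control replicate 1 was left out and 3771 when SF1 replicate 1 was.

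Among the ligands, Hgf and Fgf18 fell in the SF1 uterus and Fgf1 rose on 1 of its 3 probe sets. Among the receptors, Fgfr2 fell on all 3 probe sets and Fgfr1 rose on 1 of 3. No probe set of Fgf2, Fgf7, Fgf9, Fgf10 or Fgfr3 was called. In all, 2 of the 21 member probe sets were called higher, 7 lower and 12 not, where 14% of all probe sets were called in either direction. With 1 probe set per gene, the brightest, 2 member genes were called higher and 3 lower of 10, where 16.6% of all genes were called, 8.45% higher and 8.11% lower. Without control replicate 1 that gene count was 3, as the calls of Fgf1 and of the brightest Hgf probe set were lost. The groups did not overlap for 9 of the 21 probe sets, the same 9 that were called, and for 36.7% of all probe sets. By the brightest probe set they did not overlap for 5 of the 10 genes, and for 39.9% of all genes. The median log2 change was -0.06 over the member probe sets and -0.07 over all probe sets. With so few genes, these counts describe the members and test nothing about them as a group. In whole tissue, fewer cells of a type and less RNA per cell cannot be told apart.

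**Figure D1:**
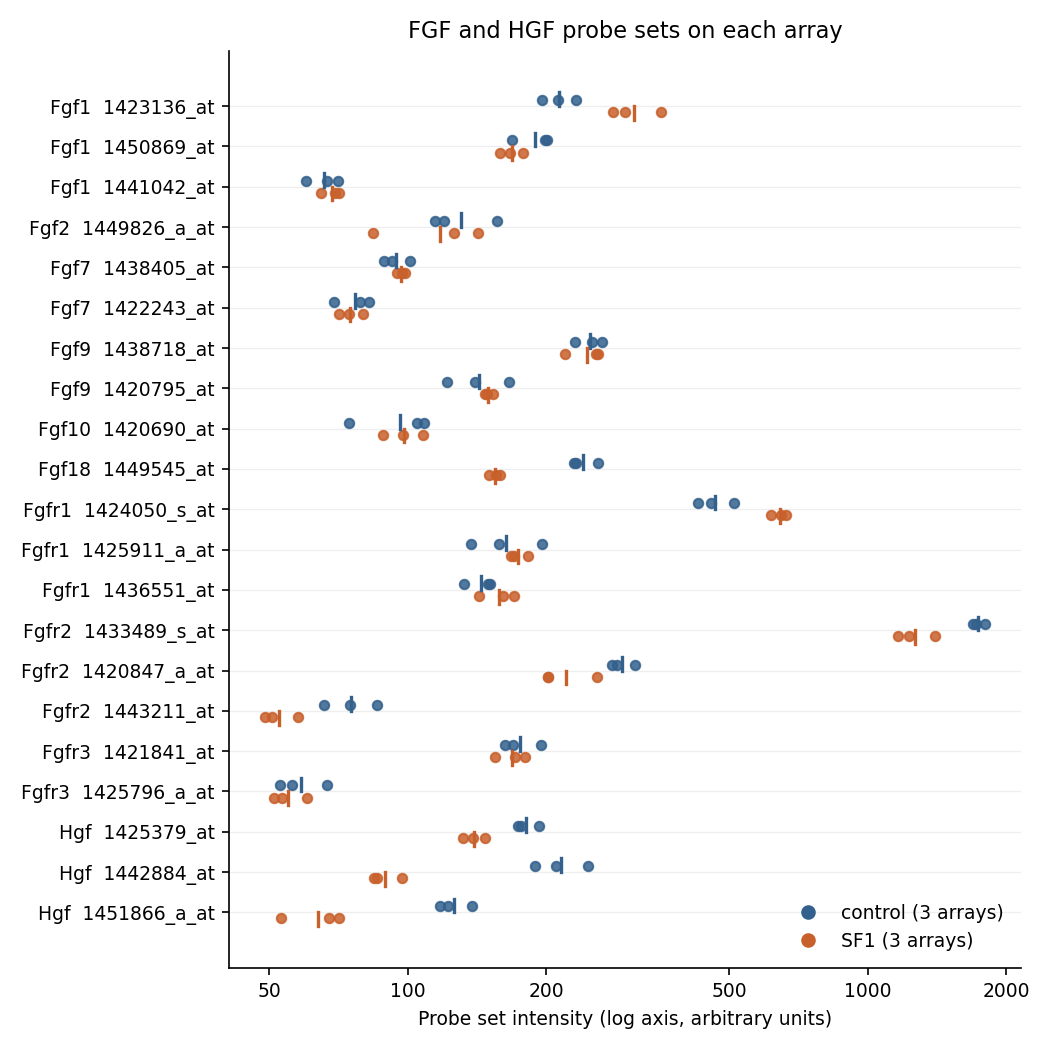
Intensity of each member probe set on each array, on a log axis in arbitrary units, with control arrays in blue above and SF1 arrays in orange below, and a vertical tick at each group's mean (n = 3). The groups separate on all 3 probe sets of Hgf and of Fgfr2, on Fgf18, and on 1 probe set each of Fgf1 and Fgfr1, and overlap on the other 12. Levels of different probe sets cannot be compared with each other.

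The 3 member genes that fell each have an annotated start in the RefSeq promoter table for GRCm38.p6, and the bases before those starts are shown because these are the members that moved in 1 direction. Each sequence holds the 250 bases before the start, written 5′ to 3′ on the gene's strand, with every CpG pair in capitals. Hgf has 2 annotated starts, and the window before the outer one is shown. Which start the uterus uses was not measured.
Hgf, chr5:16553245-16553494, plus strand: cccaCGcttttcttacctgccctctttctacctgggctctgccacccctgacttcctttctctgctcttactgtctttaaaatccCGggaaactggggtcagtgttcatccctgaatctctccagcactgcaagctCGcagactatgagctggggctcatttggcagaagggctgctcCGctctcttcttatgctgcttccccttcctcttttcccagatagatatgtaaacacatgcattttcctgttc
Fgf18, chr11:33147401-33147650, minus strand: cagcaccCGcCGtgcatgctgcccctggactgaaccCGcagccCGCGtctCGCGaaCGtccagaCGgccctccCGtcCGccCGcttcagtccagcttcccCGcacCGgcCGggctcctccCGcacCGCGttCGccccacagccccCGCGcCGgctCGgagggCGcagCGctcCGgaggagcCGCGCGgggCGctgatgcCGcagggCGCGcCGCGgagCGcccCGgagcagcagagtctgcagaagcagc
Fgfr2, chr7:130266809-130267058, minus strand: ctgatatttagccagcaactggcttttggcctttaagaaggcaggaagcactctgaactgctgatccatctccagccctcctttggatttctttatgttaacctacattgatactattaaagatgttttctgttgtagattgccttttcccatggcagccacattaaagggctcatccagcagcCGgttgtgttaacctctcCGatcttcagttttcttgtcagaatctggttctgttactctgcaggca
The windows differ in base composition. Fgf18 is preceded by a CpG-rich stretch, with 37 CpG pairs and 77.2% G or C. The Hgf window holds 4 CpG pairs (50.8% G or C) and the Fgfr2 window 2 (44% G or C), against a median of 6 pairs and 52.4% over 32851 such windows. The motifs searched on both strands were 4 in number. They were CAAGGTCA and CAAGGCCA, which SF1 can bind, AGAACA, a part of the progesterone receptor element, and ACCACCC, the core bound by the Hedgehog factors of the GLI family. None of the 4 occurred in these 3 windows or in that of the other Hgf start, where 1.33%, 1.99%, 16.1% and 3.92% of all windows hold them. A match would be a description only, and no match says only that these letters are not in these windows.

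Hgf encodes a stromal growth factor for epithelial and endothelial cells that carry Met. On all 3 of its probe sets the highest SF1 array was below the lowest control array. Probe set 1442884_at read 210.5, 246.4 and 189.5 in the control arrays and 86.0, 84.5 and 97.2 in the SF1 arrays, here and below in the order of their replicate numbers. Probe set 1451866_a_at read 117.4, 138.0 and 122.5 in control and 53.1, 71.1 and 67.4 in SF1. Probe set 1425379_at read 173.9, 193.0 and 176.4 in control and 131.9, 138.9 and 147.4 in SF1. The loss was thus seen by every probe set, but its size was not the same.

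The log2 change of Hgf was -1.13 ± 0.11 on 1442884_at (SE; limma adjusted p = 0.000221), which left 41.4% of the control mean. It was -0.83 ± 0.11 on 1451866_a_at (adjusted p = 0.00135), which left 50.7%, and -0.34 ± 0.08 on 1425379_at (adjusted p = 0.0253), which left 77.0%. The 95% intervals of the first and the last, -1.37 to -0.89 and -0.53 to -0.16, did not overlap. Within an array, the log2 value of 1425379_at minus that of 1442884_at averaged -0.23 ± 0.119 over the control arrays and 0.56 ± 0.0532 over the SF1 arrays (SD, n = 3; two-sided exact permutation p = 0.1, the smallest possible, and 0.22 adjusted over the 11 such pairs of member probe sets). The calls of 1442884_at and 1451866_a_at held with each array left out. That of 1425379_at, the brightest of the 3 on average over both groups, did not hold when any array but SF1 replicate 3 was left out (highest adjusted p = 0.0915). In control arrays alone 1442884_at was the brighter, with a mean of 215.5 units against 181.1. Over genes with 3 or more probe sets, 1.81% had all of them called lower, and Hgf and Fgfr2 were both among these.

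Fgf18, a ligand mainly for the c splice forms of FGF receptors and Fgfr3, has 1 probe set. It read 259.0, 230.5 and 232.7 in control and 150.1, 158.7 and 155.3 in SF1. The SF1 arrays lay close together and well below the lowest control array. The log2 change was -0.59 ± 0.08 (SE; limma adjusted p = 0.00172), to 64.3% of control, and the call held in all 13 alternatives, with values between -0.63 and -0.48.

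Fgf1, the ligand that can bind every FGF receptor form, gave conflicting readings. Its brightest probe set, 1423136_at, read 211.9, 195.7 and 231.9 in control and 355.4, 297.4 and 280.1 in SF1. Every SF1 array was above every control array on that probe set, a change of 0.51 ± 0.11 on the log2 scale (SE; limma adjusted p = 0.0152). With control replicate 1 left out the adjusted p was 0.053.

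The platform table assigns a second Fgf1 probe set, 1450869_at, to the same source transcript. It read 168.6, 201.0 and 198.6 in control and 159.0, 167.2 and 178.7 in SF1, with overlapping groups and a log2 change of -0.15 (95% interval -0.36 to 0.06; adjusted p = 0.296). Within an array, the log2 value of 1423136_at minus that of 1450869_at averaged 0.16 ± 0.175 over the control arrays and 0.82 ± 0.244 over the SF1 arrays (SD, n = 3; two-sided exact permutation p = 0.1, and 0.22 adjusted over the 11 pairs). The other Fgf1 probe set, 1441042_at, was dim and gave 0.05 (adjusted p = 0.744). The mean of the 3 probe sets changed by 0.13 (adjusted p = 0.192), so a rise of Fgf1 rests on 1423136_at alone.

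Fgf7 and Fgf10, whose products act on the epithelial b form of Fgfr2, gave no call. Fgf7, keratinocyte growth factor, read between 88.7 and 101.4 in control and between 94.8 and 98.7 in SF1 on its brighter probe set, 1438405_at. Its log2 difference was 0.04 (95% interval -0.14 to 0.21), and the other Fgf7 probe set gave -0.02. Fgf10, its close relative, read 105.1, 74.5 and 108.8 in control and 108.3, 98.0 and 88.6 in SF1, a difference of 0.04 with a wider interval, -0.26 to 0.34. All 3 probe sets of these ligands were below 157.7 units, the level of the median probe set.

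Fgf9 read 231.5, 251.5 and 264.4 in control and 257.3, 220.1 and 259.2 in SF1 on 1438718_at. The arrays of both groups were mixed along that range, with a log2 difference of -0.02 (95% interval -0.23 to 0.19). The other Fgf9 probe set gave 0.07 (-0.17 to 0.32). Fgf2, basic FGF, was the most variable member. It read 156.2, 115.0 and 120.2 in control and 84.2, 142.0 and 126.0 in SF1, where the highest reading came from control replicate 1 and the lowest from SF1 replicate 1. Its difference was -0.15 with an interval from -0.55 to 0.25 (limma adjusted p = 0.594), which spans a fall as large as that of Fgfr2.

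Fgfr2, the receptor gene whose b form serves epithelium and whose c form serves mesenchyme, fell on every probe set. The brightest, 1433489_s_at, read 1693, 1799 and 1718 in control and 1231, 1163 and 1403 in SF1. SF1 replicate 3 stood nearest to control on this probe set and on the other 2, without reaching it. The log2 changes were -0.46 ± 0.09 on 1433489_s_at (SE; limma adjusted p = 0.0115), -0.39 ± 0.11 on 1420847_a_at (0.0468) and -0.41 ± 0.10 on 1443211_at (0.0288). They left 72.9%, 75.6% and 69.5% of the control means. The 3 estimates differed by less than their errors.

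The Fgfr2 call on 1433489_s_at held in all 13 alternatives at the 0.05 threshold (highest adjusted p = 0.0478). That on 1420847_a_at did not hold when any array but SF1 replicate 3 was left out (highest adjusted p = 0.15). That on 1443211_at held only when control replicate 1 or SF1 replicate 3 was the one left out (highest 0.101). After quantile normalization, after median centring or with a pseudocount of 1, 1420847_a_at was not called. With the replicate block, neither 1420847_a_at (adjusted p = 0.0857) nor 1443211_at (0.0531) was called. No annotation in the files says which probe set sees the b or the c form.

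Fgfr1, the main receptor gene of mesenchymal cells, moved the other way on its brightest probe set, 1424050_s_at. It read 427.6, 512.6 and 456.5 in control and 663.5, 617.4 and 649.3 in SF1, with no overlap. The log2 change was 0.46 ± 0.09 (SE; limma adjusted p = 0.0105), to 138.2% of control. The call held in all 13 alternatives at the 0.05 threshold (highest adjusted p = 0.0452). The other Fgfr1 probe sets, 1425911_a_at and 1436551_at, gave 0.09 (95% interval -0.19 to 0.36) and 0.12 (-0.09 to 0.33), and their groups overlapped. The mean of the 3 probe sets gave 0.22 and was not called (adjusted p = 0.0759). In Affymetrix naming the suffix of 1424050_s_at marks a probe set that may match more than 1 transcript, and it is annotated here to Fgfr1 alone. The brightest Fgfr2 probe set, 1433489_s_at, has the same suffix and is annotated to Fgfr2 alone.

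Fgfr3, a receptor gene of epithelia and cartilage, was not called. On 1421841_at it read 163.0, 195.2 and 169.4 in control and 154.6, 171.0 and 179.9 in SF1, with a log2 difference of -0.06 (95% interval -0.27 to 0.16). The dimmer 1425796_a_at gave -0.07 (-0.29 to 0.15).

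**Figure D2:**
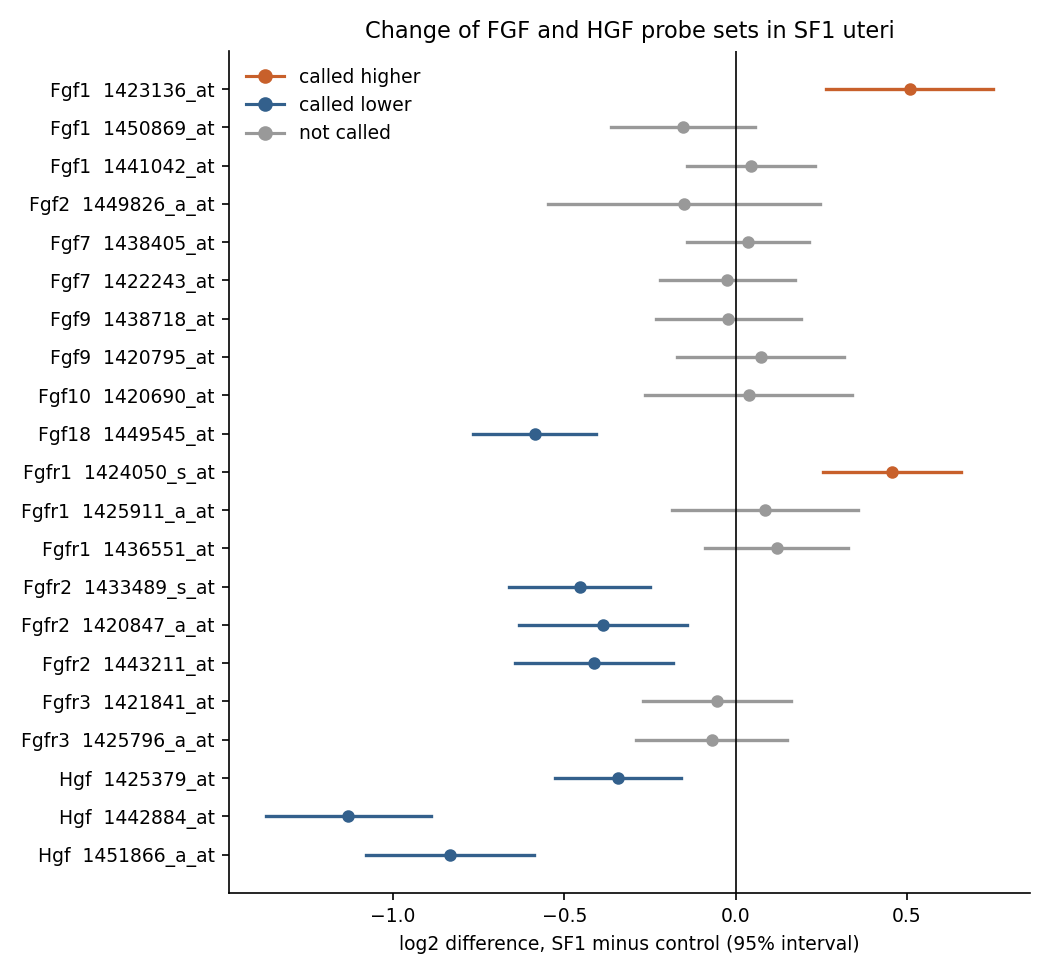
Log2 difference between SF1 and control for each member probe set, with its 95% interval from the limma fit (3 arrays against 3), on the log2(intensity + 16) scale. Orange marks called higher, blue called lower and grey not called at an adjusted p under 0.05. Hgf on 1442884_at has the lowest value (-1.13) and Fgf1 on 1423136_at the highest (0.51).

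Of the other genes for FGF ligands, 1 of 16 rose, 1 fell and 14 were not called, with a median log2 change of -0.08 (all genes: -0.05). Over all genes, 8.45% were called higher and 8.11% lower, beside which the counts of called genes in this and each later list can be set. Fgf11 rose (0.56, limma adjusted p = 0.0115, and 0.0504 with SF1 replicate 1 left out). Its dim other probe set gave 0.14 and was not called. Fgf13 fell (-0.35, adjusted p = 0.0167), but not when control replicate 1, SF1 replicate 2 or SF1 replicate 3 was left out (highest 0.0609). The replicate block also ended the Fgf13 call. Both encode intracellular FGF homologues that do not act as paracrine ligands.

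Met, the receptor for HGF, fell with its ligand. Its brighter probe set, 1434447_at, read 957.0, 881.2 and 885.3 in control and 721.6, 708.1 and 647.0 in SF1. The log2 change was -0.38 ± 0.08 (SE; limma adjusted p = 0.0157), a call that depended on control replicate 1 and on SF1 replicate 3 (highest 0.0629 with either left out). Its dim probe set gave -0.15 (0.291). Of 15 receptor and co-receptor genes outside the members, 1 rose, 6 fell and 8 were not called, with a median of -0.19. Fgfr4 (0.09, 95% interval -0.15 to 0.33) and Fgfrl1 (-0.01, -0.19 to 0.16), which encodes a receptor without a kinase, were not called. The dimmer Fgfrl1 probe set, 1451912_a_at, gave 0.41 (0.11 to 0.72; limma adjusted p = 0.0782), with groups that did not overlap.

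The glypicans and syndecans of this list are cell surface carriers of heparan sulfate. Gpc4, a glypican gene, rose by 1.48 on the log2 scale, from 501.5 ± 43.8 to 1428 ± 87.2 units (limma adjusted p = 2.87e-05), and its other probe set also rose (1.20). Sdc1, the epithelial syndecan gene, fell from 1422 ± 47.2 to 866 ± 165 (-0.72, adjusted p = 0.0062), with 3 of 4 probe sets called lower. Gpc1 fell by 0.41 on the log2 scale (adjusted p = 0.0112) and Sdc3 by 0.39 (0.035). Of the other Sdc3 probe sets, 1420853_at gave 0.04 and 1436482_a_at -0.10, and neither was called. With 1 array left out, the Sdc3 call held only when that was replicate 2 of either group (highest 0.106). It was also lost with median centring, a pseudocount of 1 or the replicate block.

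Of 14 measured heparan sulfate genes and ligand carriers, 1 rose, 2 fell and 11 were not called (median 0.07). Hs6st2, which adds 6-O sulfate to heparan sulfate, rose. It read 43.4, 38.1 and 53.9 in control and 580.9, 451.6 and 563.2 in SF1. The log2 change was 3.16 ± 0.13 (SE; limma adjusted p = 4.57e-06). Its control readings lay far below the median probe set, so the size depends on the pseudocount, from 2.44 with 64 to 3.54 with 1, and it was called with both. Of its 3 other probe sets, 1 rose (0.72) and 2 were not called (-0.10 and -0.07). Extl3, an enzyme gene of heparan sulfate chain synthesis, fell (-0.70, adjusted p = 0.000554), as did Sulf1, which removes 6-O sulfate outside the cell (-0.45, adjusted p = 0.0317). The dim other probe set of Extl3 gave -0.23 and was not called. The Sulf1 call, too, held only with replicate 2 of either group left out (highest 0.109), and not with a pseudocount of 1 or the replicate block.

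Genes for HGF activation and inhibition split, with 2 of 10 risen, 1 fallen and 7 not called (median -0.11). Plat, a plasminogen activator gene, fell from 4200 ± 228 to 2607 ± 140 intensity units (-0.68, limma adjusted p = 0.000887) on both probe sets. Hpn (0.43, adjusted p = 0.0261) and St14 (0.26, 0.0477) encode membrane proteases that can cleave pro-HGF. Both were called higher, but leaving out any array but SF1 replicate 3 ended the Hpn call, and leaving out any of the 6 ended the St14 call (highest 0.095 and 0.137). With a pseudocount of 1, St14 was not called, and with the replicate block neither Hpn nor St14 was. The inhibitor genes Spint1 (0.16) and Spint2 (0.21) were not called (adjusted p = 0.214 and 0.121).

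Of 13 measured genes of receptor-proximal signalling, 1 rose, 4 fell and 8 were not called (median -0.06). Gab2, a docking protein gene, rose on its brightest probe set, 1419829_a_at (0.61, limma adjusted p = 0.000928), but its probe sets conflicted. The dimmer 1420785_at gave -0.54 (95% interval -0.90 to -0.18; adjusted p = 0.0549), with groups that did not overlap, and 1439786_at gave -0.05. The kinase gene Braf (-0.49, adjusted p = 0.00419), Plcg1 (-0.44, 0.016) and the adaptor gene Shc1 (-0.37, 0.0122) fell on their brightest probe sets. Of all their probe sets, 6 of 9 for Braf, 2 of 3 for Plcg1 and 1 of 2 for Shc1 were called lower. Plcg1 stood at 0.0559 with SF1 replicate 2 left out, and was not called with the replicate block.

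Feedback and response genes, which FGF receptor signalling is known to induce in many tissues, were for the most part not called. Of 19 measured, 2 rose, 1 fell and 16 were not called, with a median of -0.05. Spry1 gave 0.23 (95% interval -0.05 to 0.51), Spry2 -0.24 (-0.50 to 0.01) and Spry4 -0.08 (-0.42 to 0.25). Dusp6, a phosphatase gene for ERK, gave -0.04 (-0.25 to 0.17), Etv4 -0.22 (-0.47 to 0.04) and Etv5 0.16 (-0.10 to 0.42). Dusp5 rose (0.57, limma adjusted p = 0.00691) and so did Egr1 (0.48, 0.0176), though not with SF1 replicate 1 or SF1 replicate 2 left out (highest 0.0597). Il17rd, a membrane inhibitor of FGF signalling, fell (-0.55, adjusted p = 0.00468). Its dim other probe set gave -0.16 with overlapping groups and was not called.

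**Figure D3:**
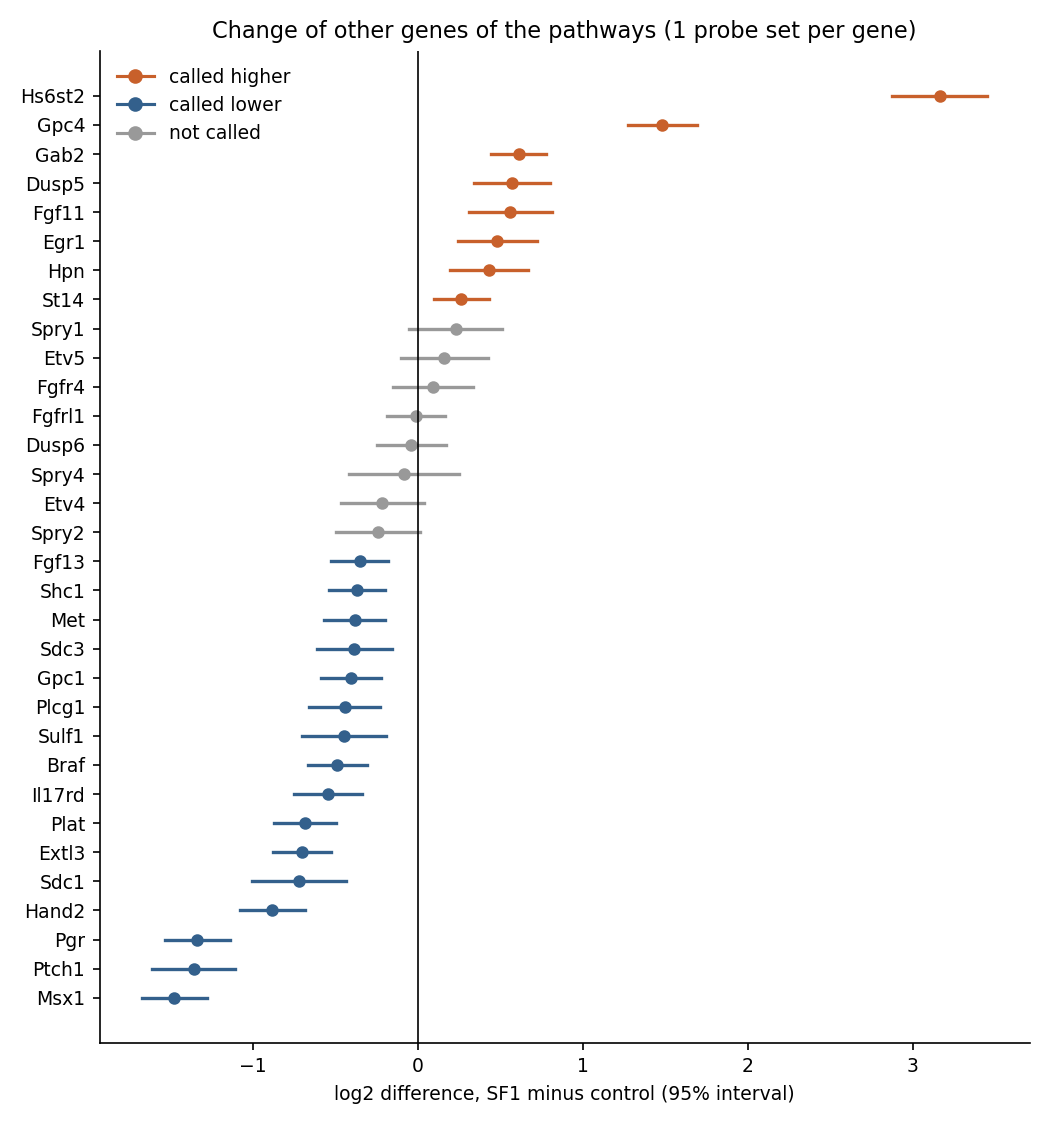
Log2 difference between SF1 and control, with its 95% interval (limma, 3 arrays against 3), for the genes named outside the 10 members, each by its brightest probe set and sorted by value. Hs6st2 (3.16) and Gpc4 (1.48) are highest, Msx1 (-1.48), Ptch1 (-1.36) and Pgr (-1.34) lowest, and the Spry, Etv and Dusp6 intervals cross 0.

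Most genes of the stromal regulator list fell. Of 15 genes, 0 rose, 11 fell and 4 were not called (median -0.88; limma), with 1 higher and 12 lower at an unadjusted p under 0.05. The share of all genes at that unadjusted threshold was not counted, so unadjusted counts here and for the marker lists below have no share beside them. Hand2 read 1092, 1128 and 1131 in control and 619.8, 640.3 and 540.1 in SF1, which is -0.88 ± 0.09 on the log2 scale (SE; adjusted p = 0.000294). Msx1 (-1.48, adjusted p = 2.09e-05), a homeobox gene of the receptive uterus, and Ptch1 (-1.36, 0.000107), the Hedgehog receptor gene, had, with Pgr, the largest falls of this list. For Hand2 and for Ptch1, 2 of 3 probe sets were called lower. Of the FGF genes that Hand2 is known to hold down, Fgf1 was called higher on 1 of its 3 probe sets. Fgf18 fell, and Fgf2 and Fgf9 were not called. A link between Hand2 and these genes was not tested.

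The levels of cell type markers differed between the groups for several lists (all genes: 8.45% called higher and 8.11% lower). Stromal markers summed to between 61225 and 65768 intensity units in control and between 54209 and 59403 in SF1, with 1 of 12 genes risen and 6 fallen. Sums of this kind follow the brightest probe sets most, here Dcn with a control mean of 18925, and hide differences between genes. Twist2 stood at 33.0% of its control mean and Fap, the gene that rose, at 189.3%. The stromal receptor gene Pdgfra fell (-0.72), while Vim (-0.02) and Col3a1 (0.15) were not called. Epithelial markers summed to between 18377 and 19300 in control and between 21840 and 24046 in SF1, with 6 of 11 risen and 1 fallen. Endothelial markers summed to between 5965 and 6214 in control and between 3967 and 4418 in SF1, with 0 of 10 risen (limma; also 0 at an unadjusted p under 0.05) and 8 fallen.

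Smooth muscle markers (limma: 0 of 10 risen, 2 at an unadjusted p under 0.05, and 1 fallen) summed to between 30951 and 33509 in control and between 32830 and 35179 in SF1. Leukocyte markers (limma: 6 of 10 risen, 0 fallen, also 0 at an unadjusted p under 0.05) summed to between 7440 and 11076 in control and between 13096 and 20226 in SF1. Mesothelial markers (limma: 0 of 6 called, also 0 at an unadjusted p under 0.05) summed to between 3743 and 4105 and between 4450 and 4513. Fat cell markers (limma: 0 of 6 risen, also 0 at an unadjusted p under 0.05, and 1 fallen) summed to between 9206 and 14579 in control and between 2542 and 10271 in SF1, lowest in SF1 replicate 3. Oviduct and ciliated cell markers (5 of 7 risen, 1 fallen) summed to between 1721 and 1867 and between 5818 and 8998. Ovary markers (1 of 7 risen, 1 fallen) summed to between 2539 and 2656 and between 1514 and 1696. That sum includes Foxl2, which is also counted among the stromal regulators and fell from a mean of 1807 in control to 795 in SF1. Of the other ovary markers Inha rose, from a mean of 142.1 to 255.7, and 5 were not called. Of the oocyte genes, Oosp1 read 20.8 to 41.3 units and Zp3 71.9 to 92.1 over the 6 arrays, below the median probe set, while Gdf9 read 146.1 to 190.6, around it. No marker read 0. The stromal, epithelial and smooth muscle markers lay above the median probe set, but other organs share them, so they cannot check the label of uterus. The part of these marker differences in the FGF and HGF changes was not tested.

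**Figure D4:**
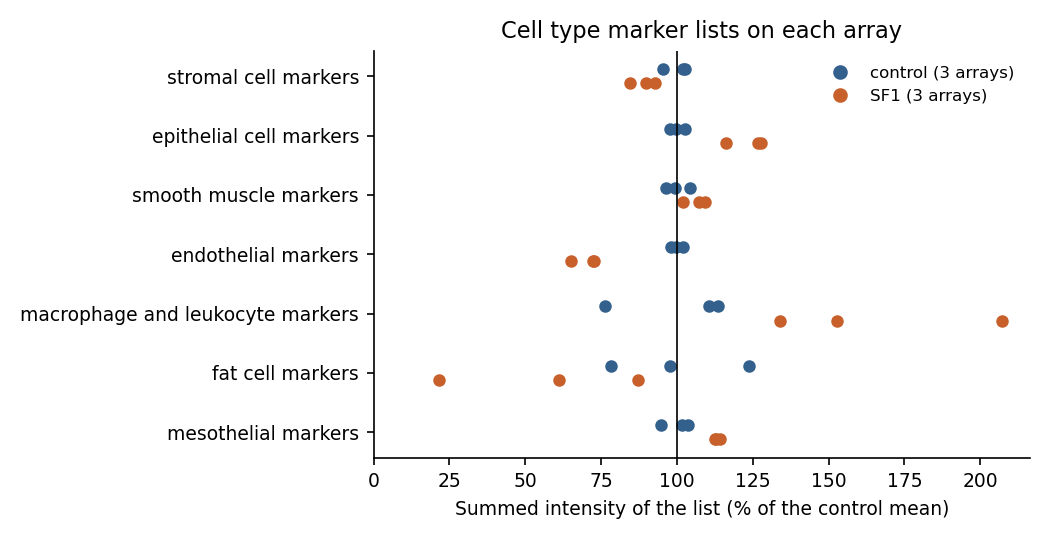
Summed intensity of 7 cell type marker lists on each array, as a percentage of the control mean of that list, with control arrays in blue and SF1 arrays in orange. Endothelial markers lie between 65.2% and 72.6% in SF1, epithelial markers between 116.1% and 127.9%, and stromal markers between 84.5% and 92.6%. The brightest probe sets of a list weigh most in its sum.

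The genes whose profiles over the 6 arrays were most like those of members were found by the root mean square distance between log2 values, each gene centred on its control mean. Nearest to Fgf1 on 1423136_at, the member gene with the largest called rise, were Kit (distance 0.05), B2m (0.05) and Egr1 (0.06). Kit read 206.5, 187.8 and 244.9 in control and 363.5, 308.2 and 269.5 in SF1, with the same order of the 3 SF1 arrays as Fgf1. Nearest to Fgf18, the member gene with the largest called fall by its brightest probe set, were Eogt (0.04), Resf1 (0.05) and Fam107b (0.05). Each distance rests on 6 arrays in 2 groups.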

How the data were processed

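RNA of 6 pools, each of 2 uteri, was hybridised to 1-colour Affymetrix Mouse Genome 430 2.0 arrays, per the labels' protocols. The deposited table holds linear probe set intensities. How the authors corrected, normalized and summarized them is not stated, which could alter changes of dim probe sets. Samples were grouped by their titles. Of 45101 probe sets, 64 controls were set aside. The 45037 tested had 1 symbol (34945), several (932) or none (9160) in the platform table.

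Deposited intensities were transformed as log2(intensity + 16) and fitted with limma 3.58.1 (lmFit, eBayes) in R 4.3.3, with Benjamini-Hochberg adjustment over all tested probe sets and calls at an adjusted p under 0.05. This scale understates changes of dim probe sets. The probe set brightest on average stood for a gene. Intervals (95%) and adjusted p-values are from this fit, which was tested on simulated data. Precision is limited by 3 arrays a group, with a median SD (log2) of 0.108 among control and 0.1 among SF1 arrays.

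The members and lists were chosen with earlier results of these data known. Named outside the members were Met, Fgfr4, Fgfrl1, Spry1, Spry2, Spry4, Dusp6, Etv4, Etv5, Hand2 and Pgr, and from each pathway list up to 3 called genes with the largest rise and 3 with the largest fall. Spint1, Spint2 and the markers named were chosen after their values were seen. The alternatives were pseudocounts of 1 and 64, quantile normalization, median centring, brighter probe sets only, the replicate block, eBayes with trend and robust, each array left out, averaged probe sets per gene and a threshold of 0.01. Alternatives counted for a single probe set leave out averaging and the 0.01 threshold. Promoter windows are from RefSeq (GRCm38.p6), where 8 of 10 members matched. Python 3.11.15, pandas 2.3.3 and matplotlib 3.10.9 made tables and figures.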

Additional observations from a re-analysis of the deposited data

How the results depend on the processing

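Every called member probe set kept its direction in the alternatives it was run in. At an adjusted p under 0.01, 3 member probe sets were called (Fgf18 and 2 of Hgf, all lower) and 1 member gene (Fgf18). Averaging the probe sets of a gene left 3 member genes called, all lower (Hgf, Fgf18 and Fgfr2). With 1 array left out, between 3 and 5 member genes were called, and over the whole array between 3771 and 4761 probe sets and between 1946 and 2376 genes. With the replicate block, 4095 probe sets were called over the whole array and 6 among the members. The member calls lost were those of Hgf on 1425379_at and of Fgfr2 on 1420847_a_at and 1443211_at. Deviations of same-numbered arrays from their group means correlated at -0.0633, -0.101 and -0.184. With 3 arrays a group, such values cannot tell whether same-numbered pools were processed together. The table gives no detection calls. By their average over the 6 arrays, 11 member probe sets lay below the median level of 157.7 units, 3 of them called. Of these, Hgf on 1442884_at read 189.5 to 246.4 units in control, above that level, and 84.5 to 97.2 in SF1.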
